A study of Mus musculus with 6 samples.

Results

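Alpha- and beta-tubulin genes, which encode the subunits of microtubules, and the genes whose enzymes modify tubulin were examined in dorsal root ganglia of the mouse, the clusters of sensory neurons and glia beside the spinal cord. They were chosen by symbol, as tubulin genes (Tuba, Tubb, Tubg, Tubd and Tube), tubulin tyrosine ligase-like genes (Ttll), cytosolic carboxypeptidases (Agbl genes and Agtpbp1), and Ttl, Vash1, Vash2, Svbp, Tpgs1, Tpgs2, Lrrc49, Nicn1, Hdac6 and Atat1. Of the 55809 gene symbols in the count files, 48 matched, and 44 had at least 10 counts in at least 3 pools. All 44 were among the 20146 genes tested. The other 4, Ttll2, Ttll10, Tuba3a and Tuba3b, had 0 to 3 counts in each pool.

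Ganglia came from 8-week-old C57BL6J mice, in 3 control pools (CT) and 3 prenatal stress pools (PS), each labelled as a pool of 3 mice, while the series design gives 9 mice per group and the treatment label 3. Dams of both groups were 8 to 10 weeks old, per the labels. PS dams were restrained in drilled tubes under bright light 3 times daily for 30 min, and CT dams were not disturbed. The restraint ran from embryonic day 13 to 18 in the treatment label and over a slightly later window in the series design. Males and females were used, per the labels, which name no sex, litter or cage for a pool, so a p-value measures only the spread between pools. The design asks whether restraint of the pregnant dam goes with other transcript levels in the ganglia of her grown offspring.

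Microtubules are hollow polymers of alpha-beta tubulin dimers, and in sensory neurons they form the tracks along which cargo moves between the cell body and a very long axon. The genes of each family encode nearly identical bodies that differ mostly in the acidic tail at the carboxyl end, which lies on the microtubule surface. Enzymes remove and restore the last tyrosine of alpha-tubulin, add and trim side chains of glutamate on both tails, and acetylate a lysine inside the tube, and these marks set how motors and severing enzymes bind.

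The end of the coding sequence is shown for 7 genes because it encodes the tail on which tyrosination and glutamylation occur. Each line gives the last 30 bases, 5′ to 3′, with the codon before the stop codon in capitals, from GENCODE M21 transcripts (GRCm38).
Tuba1c: gaaggagacgatgagggtgaggaaTATtaa
Tuba4a: tatgaggacgaggatgagggagaaGAGtag
Tuba8: gaagaagagaatgagggggaggaaTTTtaa
Tubb3: gaggaatcggaagcccaggggcccAAGtga
Tubb2b: gaggaggaagagggcgaggatgagGCTtga
Tubb4b: gaggaggaggctgaggaggaggtgGCTtag
Tubb5: ttcggagaggaggcagaagaggagGCCtaa
Tuba1c ended in TAT, a codon for tyrosine, the residue that the vasohibins remove and Ttl puts back. Tuba4a ended in GAG, a codon for glutamate, and so encodes a protein that is made without the tyrosine. Tuba8 ended in TTT, a codon for phenylalanine. Among the beta-tubulins shown, Tubb3 ended in AAG (lysine), Tubb2b and Tubb4b in GCT and Tubb5 in GCC (both alanine). The runs of gaa and gag in these ends are glutamate codons, the residues to which side chains are added.

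In the pools, 1 of the 44 genes passed the test. Tpgs1, a noncatalytic subunit of the neuronal tubulin polyglutamylase complex, rose in PS ganglia (log2 fold change 0.74 ± 0.07 SE, edgeR quasi-likelihood test, Benjamini-Hochberg adjusted p = 0.0156 over all genes). No member fell at that threshold. Over all genes tested 0.129% passed in either direction and 0.0844% passed as higher. Most alpha- and beta-tubulin genes had slightly lower values in PS pools. All 3 PS pools lay below all 3 CT pools for 8 of these 13 genes, beside 8.76% of all genes. The enzymes were spread around 0.

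At an unadjusted p under 0.05, 3 members were higher (Tpgs1, Ttll4 and Svbp) and 8 were lower, all of them alpha- or beta-tubulins. That was 25% of the members, beside 11.1% of all genes (6.01% higher and 5.11% lower). The pools of the groups did not overlap for 3 members with PS above CT and for 10 with PS below, which was 29.5% of the members beside 18.1% of all genes (9.33% above and 8.76% below). The median log2 fold change was -0.015 over the members and 0.007 over all genes, with members from -0.60 to 0.74.

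**Figure D1:**
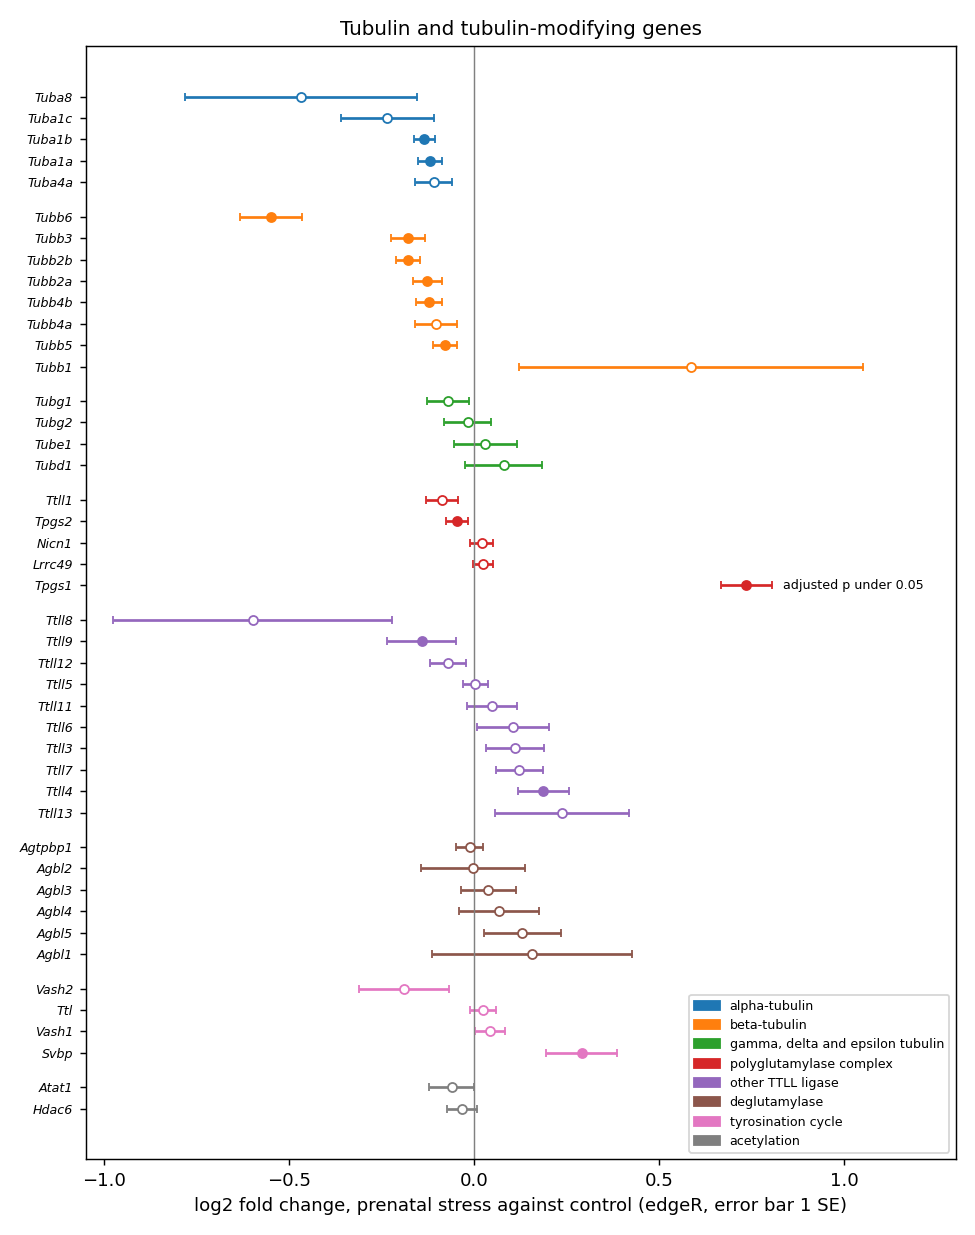
Log2 fold change, prenatal stress against control, of the 44 genes by class, with error bars of 1 SE from edgeR. Filled points are genes whose 3 prenatal stress pools lay all above or all below the 3 control pools, and Tpgs1 at 0.74 is the gene with an adjusted p under 0.05.

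Alpha-tubulins were measured first. All 5 genes had negative log2 fold changes, with a median of -0.135, where 9618 of all 20146 genes were negative. In 2 of the 5, every PS pool lay below every CT pool, beside 8.76% of all genes. Levels below are counts scaled to a fixed library total, with TMM factors (CPM), given for CT pools 1 to 3 and then PS pools 1 to 3.

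Tuba1a, the main alpha-tubulin of growing and adult neurons, was measured at 1941, 1949 and 1917 CPM in CT pools and at 1816, 1786 and 1744 CPM in PS pools. Every PS pool lay below every CT pool (log2 fold change -0.12 ± 0.03 SE, adjusted p = 0.312). Tuba1b, a widely expressed isotype, was at 962, 949 and 958 CPM in CT pools and 871, 871 and 870 CPM in PS pools. The PS pools were tightly grouped, and the gap between the groups was wider than the spread within either (-0.135 ± 0.028, adjusted p = 0.234).

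Tuba4a, the isotype without an encoded tyrosine, was at 307, 324 and 334 CPM in CT pools and 291, 317 and 287 CPM in PS pools. PS pool 2 lay inside the CT range, so the groups overlapped (-0.11 ± 0.05, adjusted p = 0.47). Tuba1c and Tuba8 were minor, at means of 17.0 and 3.35 CPM in CT pools, and also overlapped. Tuba8, an isotype known from muscle and testis, reached 5.19 CPM in CT pool 3 against 2.18 to 2.78 CPM in the other 5 pools. CT pool 3 also carried 2050 CPM of summed skeletal muscle markers, against 12.5 to 39.7 CPM in the other pools, and the part of those markers in the Tuba8 value was not tested.

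Beta-tubulins also had mostly lower values in PS pools. Of 8 genes, 7 had negative log2 fold changes, where 9618 of all 20146 genes did. At an unadjusted p under 0.05, 6 were lower, beside 5.11% of all genes. The same 6 had every PS pool below every CT pool, beside 8.76% of all genes. The median was -0.125.

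Tubb6, a divergent beta-tubulin isotype, had the lowest fold change of the family. It was at 11.1, 11.0 and 10.3 CPM in CT pools and 6.64, 7.62 and 7.88 CPM in PS pools. The groups stood well apart, but the adjusted p was 0.107 (log2 fold change -0.55 ± 0.08 SE). It was among the genes that passed when no low-count filter was used (adjusted p = 0.0286) and in DESeq2 (3.04e-05), and over all 14 alternatives its adjusted p ranged up to 0.508.

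Tubb2b, a neuronal isotype needed in the developing brain, was at 513, 531 and 508 CPM in CT pools and 463, 448 and 462 CPM in PS pools. No PS pool reached the lowest CT pool (-0.18 ± 0.03, adjusted p = 0.18). Tubb3, the isotype restricted in large part to neurons and the usual neuronal marker, was at 2044, 2250 and 2138 CPM in CT pools and 1889, 1960 and 1832 CPM in PS pools. CT pools were more spread than for Tubb2b, and PS pool 2 lay nearest to them (-0.18 ± 0.05, adjusted p = 0.297). Tubb2a, a close relative of Tubb2b, was at 761, 822 and 769 CPM in CT pools and 724, 709 and 721 CPM in PS pools. All 3 PS pools lay below the CT range (-0.13 ± 0.04, adjusted p = 0.354).

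Tubb4b, found in many cell types, was at 964, 966 and 935 CPM in CT pools and 900.5, 881 and 850.2 CPM in PS pools. The groups did not overlap (-0.12 ± 0.03, adjusted p = 0.327). Tubb5, the common isotype of dividing and non-neuronal cells as well as neurons, was at 1229, 1199 and 1193 CPM in CT pools and 1164, 1150 and 1116 CPM in PS pools. Its groups also did not overlap, with the narrowest gap of these genes relative to its level (-0.08 ± 0.03, adjusted p = 0.446).

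The other 2 beta-tubulin genes overlapped between groups. Tubb4a, known from oligodendrocytes and neurons, averaged 587 ± 8.95 CPM in CT pools and 547 ± 43.3 CPM in PS pools (SD, n = 3 each). By pool it was at 582, 597 and 582 CPM in CT and 551, 588 and 501 CPM in PS. Markers of central nervous system glia summed to 39.4, 221 and 181 CPM in CT and 45.3, 255 and 82.5 CPM in PS. Their part in the Tubb4a value was not tested. Tubb1, the isotype of platelets and megakaryocytes, was under 1 CPM in every pool. Its highest value was 0.949 CPM in PS pool 3, which also had the highest summed markers of platelets and megakaryocytes (12.6 CPM, against 8.65 to 10.8 CPM elsewhere). The part of those markers in the Tubb1 value was not tested.

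**Figure D2:**
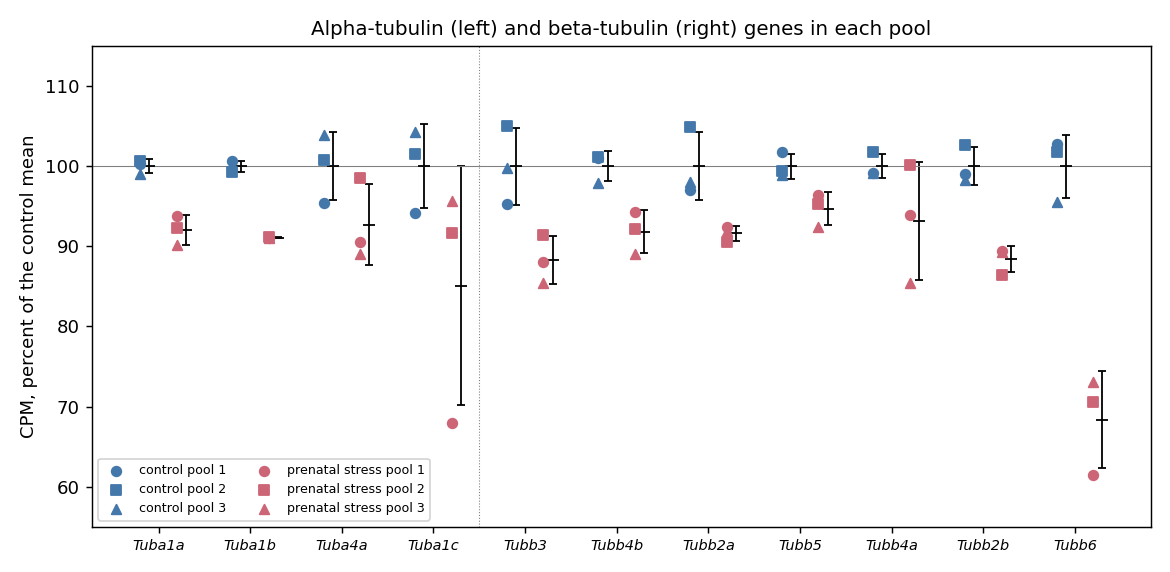
CPM of 11 alpha- and beta-tubulin genes in each pool as a percent of the gene's control mean, with the mean and SD of 3 pools beside the points. Tuba8 and Tubb1, both under 6 CPM in every pool, are left out. The 3 prenatal stress pools lie below the 3 control pools for 8 genes, and Tubb6 is the farthest from its control mean.

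Levels of different genes can be compared only per length, so each gene's CPM was divided by the length of its longest transcript in kilobases (kb). The alpha-tubulin genes summed to 1746 ± 3.87 CPM per kb in CT pools and 1602 ± 21.5 in PS pools (SD, n = 3 each). The beta-tubulin genes summed to 3195 ± 83.5 CPM per kb in CT pools and 2900 ± 66.9 in PS pools. Neither sum overlapped between groups.

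The makeup of the alpha family varied little between the groups, where the sums differed more. Tuba1a supplied 61.5 ± 0.40% of the family in CT pools and 61.7 ± 0.52% in PS pools, Tuba1b 31.4 ± 0.26% and 31.2 ± 0.41%, and Tuba4a 6.49 ± 0.28% and 6.56 ± 0.32% (SD, n = 3 pools). Each of these shares overlapped between the groups. 

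In the beta family Tubb3 was the most abundant, with 35.9 ± 0.91% of the per-length level in CT pools and 34.9 ± 0.56% in PS pools. Tubb4b supplied 18.7 ± 0.46% and 18.9 ± 0.29%, Tubb2a 15.2 ± 0.25% and 15.4 ± 0.46%, and Tubb5 14.3 ± 0.52% and 14.9 ± 0.15%. This order of the means holds only for this length: per kb of merged exons Tubb2a (16.5%) stood above Tubb4b (15.5%) in CT pools, and without division by length Tubb5 (19.5%) came second. Tubb3 was first by all 3 measures. Tubb6 made up 0.192 ± 0.008% of the family in CT pools and 0.145 ± 0.015% in PS pools, and these shares did not overlap.

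**Figure D3:**
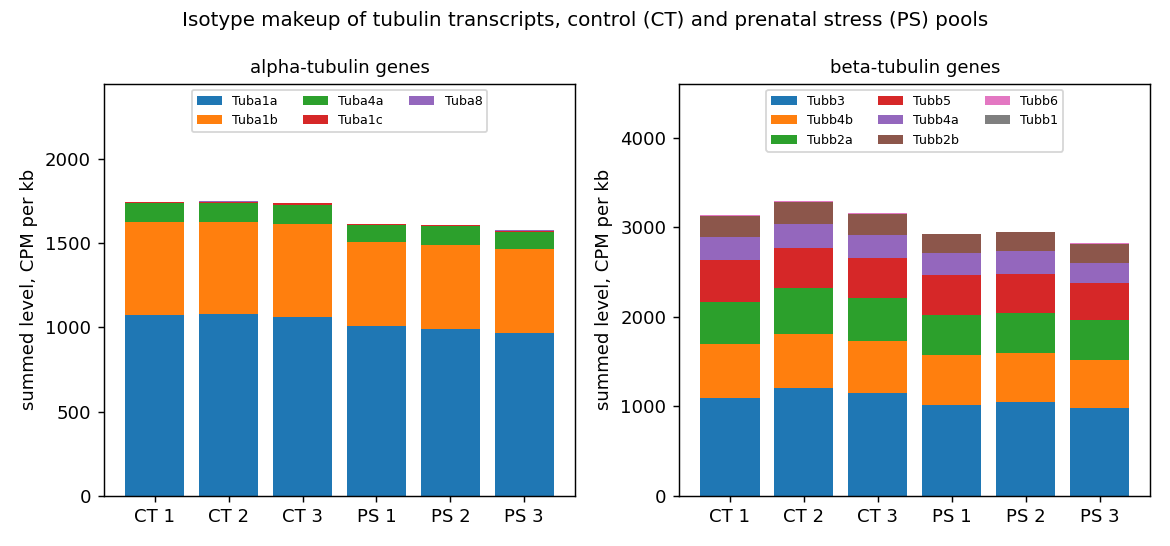
Summed level of the alpha-tubulin genes and of the beta-tubulin genes in each pool, in CPM per kb of the longest transcript, stacked by gene. The alpha sum lies between 1742 and 1749 in control pools and between 1577 and 1617 in prenatal stress pools, while the proportions of the stacked genes are similar.

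Several of these genes have close copies in the genome, and reads that fit more than 1 place are not counted for any gene. In GENCODE M21, 65.8% of the 100-base stretches of Tuba1a transcripts, 73.0% of Tuba1b, 53.4% of Tuba1c, 36.9% of Tubb2a, 27.7% of Tubb2b and 30.6% of Tubb4b also occurred in another gene, so single-gene values for these are uncertain. Other genes shared stretches with a gene at the same place on the opposite strand, among them 46.7% of Tuba4a with Stk16, 27.1% of Agbl1 with Gm45210, 15.9% of Agbl5 with Ost4 and 12.5% of Tuba8 with Gm15856. Since the strand setting of the counting is not given in the sources used here, reads of such pairs cannot be told apart. Tubb3, Tubb4a, Tubb5, Tubb6 and Tpgs1 shared none. The share of reads left out as not unique was 7.38 to 7.70% in CT pools and 7.05 to 7.37% in PS pools, and its part in the tubulin values was not tested.

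Counts of near-identical copies were also summed, a step chosen after seeing the data. Copies that were not members had at most 5.63 CPM in any pool (Gm7172, PS pool 2). The sums were thus mostly the counts of the same members. Reads left out as not unique were not restored by summing, so the sums cannot show the part of those reads. The groups did not overlap for any of the sums. The Tuba1 copies together gave a log2 fold change of -0.12 ± 0.03 (adjusted p = 0.294), the Tubb2 copies -0.15 ± 0.04 (0.287) and the Tubb4b copies -0.12 ± 0.03 (0.327).

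The call on the tubulins depended on the test. In DESeq2, 7 of the 13 alpha- and beta-tubulin genes fell at an adjusted p under 0.05 (Tuba1a, Tuba1b, Tubb2a, Tubb2b, Tubb3, Tubb4b and Tubb6), where 330 genes passed over the whole table. With an offset for GC content and length, the median of the 13 genes was -0.078, beside 0.01 over all genes. Of the 13, 3 had an unadjusted p under 0.05, against 8 without the offset. The share of all genes under that p was not counted with the offset. At least 12 of the 13 had negative values in each of the 14 alternatives.

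Because the ganglia were bulk samples, fewer cells of a type and less RNA per cell cannot be told apart. Markers of sensory neurons summed to 5220 to 5340 CPM in CT pools and 5400 to 5470 CPM in PS pools, with 6 of 8 markers positive and none at 0. All 6 satellite glia markers had negative values, with sums of 1490 to 1710 CPM in CT pools and 1320 to 1550 CPM in PS pools, and all 7 Schwann cell markers too, with sums of 6940 to 8060 and 6050 to 7990 CPM. No marker of these 3 cell types passed the adjusted test. At an unadjusted p under 0.05, 3 of the 6 satellite glia markers and 1 of the 7 Schwann cell markers were lower. No sensory neuron marker reached that p, and 5.11% of all genes were lower at it. The median log2 fold change was -0.2 for satellite glia, -0.076 for Schwann cells and 0.035 for sensory neurons. The part of glial markers in the tubulin values was not tested.

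Gamma-, delta- and epsilon-tubulin do not build the microtubule wall: gamma-tubulin starts new microtubules, and delta- and epsilon-tubulin serve centrioles. Tubg1 averaged 43.8 ± 1.59 CPM in CT pools and 41.7 ± 2.95 CPM in PS pools, and Tubg2 33.6 ± 1.34 and 33.2 ± 2.60 CPM (SD, n = 3 each). Tubd1 and Tube1 were at 4.13 to 5.77 CPM in every pool. None of the 4 had an unadjusted p under 0.05 or groups without overlap, and the median log2 fold change was 0.006.

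Tubulin polyglutamylase, the complex that adds glutamate side chains in neurons, is built from the catalytic subunit Ttll1 and the partners Tpgs1, Tpgs2, Lrrc49 and Nicn1. Tpgs1, which helps to place the complex in the cell, was at 14.6, 16.6 and 17.4 CPM in CT pools and 27.5, 26.9 and 26.5 CPM in PS pools. The lowest PS pool stood far above the highest CT pool, and the PS pools were the tighter group (16.2 ± 1.45 against 27.0 ± 0.55 CPM, SD, n = 3 each). Its transcript has a GC content of 65.3%, and with the offset for GC content and length the log2 fold change was 0.64 (adjusted p = 0.0284).

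The call on Tpgs1 needed nearly all pools. It was lost without CT pool 2 (adjusted p = 0.121), PS pool 1 (0.135), PS pool 2 (0.0737) or PS pool 3 (0.0698), with log2 fold changes between 0.67 and 0.79 over the 6 fits that left out a pool. It held in the other 10 of 14 alternatives.

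None of the other 4 subunits passed the test. Ttll1 was at 69.9, 70.5 and 66.5 CPM in CT pools and 67.1, 65.9 and 61.7 CPM in PS pools. PS pool 1 lay inside the CT range and the other 2 below it (-0.09 ± 0.04, adjusted p = 0.497). Tpgs2, a structural partner, was at 73.0, 73.6 and 73.3 CPM in CT pools and 70.9, 71.9 and 70.01 CPM in PS pools. All PS pools were lower by a small margin (-0.05 ± 0.03, adjusted p = 0.583).

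Lrrc49, a leucine-rich repeat partner, was at 220.2, 219 and 221 CPM in CT pools and 226, 224 and 221 CPM in PS pools. Nicn1, a small partner also called nicolin, was at 114, 118 and 112 CPM in CT pools and 117, 116 and 116 CPM in PS pools. Both overlapped between groups (0.02 ± 0.03 for each, adjusted p = 0.803 and 0.86).

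**Figure D4:**
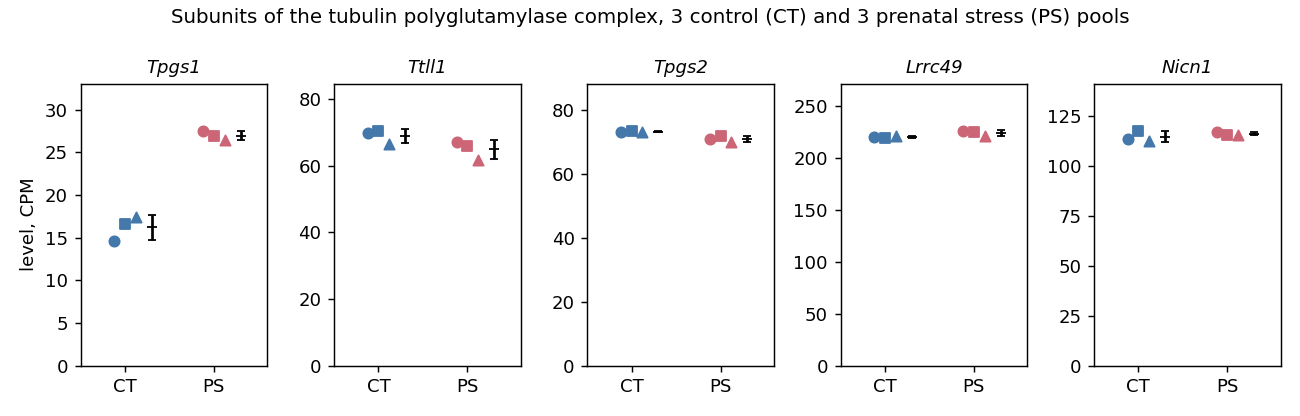
CPM of the 5 genes of the tubulin polyglutamylase complex in 3 control (CT) and 3 prenatal stress (PS) pools, each panel on its own axis from 0, with the mean and SD beside the points. Tpgs1 lies at 14.6 to 17.4 in control pools and at 26.5 to 27.5 in prenatal stress pools, and Lrrc49, the highest of the 5 in CPM, at 219 to 226 in all pools.

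Start regions are printed for Tpgs1, the member that passed, and for Tuba1b and Tubb3, high isotypes whose PS pools were lower. Each runs from 250 bases before to 50 bases after the annotated start, 5′ to 3′ on the gene's strand, from RefSeq (GRCm38.p6), with a CCAAT box (CCAAT) or a GC box (GGGCGG), on either strand, in capitals. The windows are chr10:79669189-79669488 (plus strand) for Tpgs1, chr15:98934341-98934640 (minus strand) for Tuba1b and chr8:123411303-123411602 (plus strand) for Tubb3.
Tpgs1: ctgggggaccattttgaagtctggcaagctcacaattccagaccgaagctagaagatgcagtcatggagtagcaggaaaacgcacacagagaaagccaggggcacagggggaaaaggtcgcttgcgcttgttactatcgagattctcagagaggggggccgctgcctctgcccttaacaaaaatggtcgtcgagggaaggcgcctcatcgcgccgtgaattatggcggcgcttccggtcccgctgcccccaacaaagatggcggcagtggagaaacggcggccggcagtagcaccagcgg
Tuba1b: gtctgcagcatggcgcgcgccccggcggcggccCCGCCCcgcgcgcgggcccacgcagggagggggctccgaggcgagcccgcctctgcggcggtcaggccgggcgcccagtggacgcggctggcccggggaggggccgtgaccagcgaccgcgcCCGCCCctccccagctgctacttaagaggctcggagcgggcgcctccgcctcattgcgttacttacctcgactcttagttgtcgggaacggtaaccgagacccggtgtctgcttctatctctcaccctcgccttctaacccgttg
Tubb3: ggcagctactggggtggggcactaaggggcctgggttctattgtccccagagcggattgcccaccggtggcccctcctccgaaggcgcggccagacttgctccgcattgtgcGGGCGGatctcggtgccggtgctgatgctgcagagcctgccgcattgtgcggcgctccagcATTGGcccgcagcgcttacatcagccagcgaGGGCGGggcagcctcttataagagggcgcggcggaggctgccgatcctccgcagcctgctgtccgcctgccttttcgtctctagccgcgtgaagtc
The Tpgs1 window held none of the 3 motifs searched, which also included a TATA box (TATAAA). The Tuba1b window held 2 GC boxes, and the Tubb3 window 1 CCAAT box and 2 GC boxes. Among 49 windows of 38 members, 22 held CCAAT, 31 GGGCGG and 4 TATAAA, and some windows of the same gene overlapped. In the 11 windows of alpha- and beta-tubulin genes, with none for Tubb2b and Tubb6, the numbers were 6, 7 and 2. Over all 32851 RefSeq windows, 37.4% held CCAAT, 35.7% GGGCGG and 13.6% TATAAA. Their median GC content was 52.7%, against 58.7% in the Tpgs1 window, 72.7% in that of Tuba1b and 67.3% in that of Tubb3. The part of GC content in the GC box counts was not tested. Overlapping matches occurred in some member windows (CCAAT with its reverse in Tubb1, CCAAT with a GC box in Ttll13), and none in the 3 windows printed. A match of letters is a description only.

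Most of the other TTLL ligases add glutamates or glycines to tubulin tails. Of all 10 in this class, 7 had positive log2 fold changes (median 0.076), where 10528 of all 20146 genes did. Ttll7, a polyglutamylase of beta-tubulin in neurons, was the most abundant modifying enzyme per length, at 159.8 ± 4.12 CPM per kb in CT pools and 174 ± 15.4 in PS pools. Its pools overlapped (0.12 ± 0.06, adjusted p = 0.52), and PS pool 3 was the highest at 1405 CPM.

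Ttll4, which starts glutamate side chains on tubulin and other proteins, was at 16.1, 18.3 and 18.52 CPM in CT pools and 19.1, 20.1 and 21.1 CPM in PS pools. All PS pools lay above the CT pools, by a small gap, and the adjusted p was 0.404 (0.19 ± 0.07). Ttll9 averaged 3.49 ± 0.03 CPM in CT pools and 3.16 ± 0.14 CPM in PS pools, without overlap (adjusted p = 0.612). The remaining ligases overlapped, among them Ttll5 at 59.3 ± 1.19 and 59.5 ± 1.58 CPM and the glycylases Ttll3 and Ttll8, with Ttll8 under 1 CPM in every pool.

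Deglutamylases, the cytosolic carboxypeptidases that trim the side chains, had a median of 0.053 over 6 genes, with no unadjusted p under 0.05 and no gene without overlap. Agtpbp1, whose loss kills cerebellar Purkinje cells in the pcd mouse, was by far the highest per length, at 40.5 ± 0.50 CPM per kb in CT pools and 40.1 ± 1.69 in PS pools (-0.01 ± 0.04, adjusted p = 0.934). Agbl5, which removes the branching glutamate, was at 5.71 ± 0.41 and 6.24 ± 0.64 CPM. Agbl1, Agbl2, Agbl3 and Agbl4 had log2 fold changes between 0.00 and 0.16 in size and adjusted p of 0.867 or more.

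The tyrosination cycle was measured through 4 genes. Ttl, the ligase that restores the last tyrosine, was at 403, 429.9 and 426 CPM in CT pools and 427, 420.2 and 432 CPM in PS pools. CT pool 1 was the low pool, and the other 5 were close together (0.02 ± 0.04, adjusted p = 0.857). Vash1, a tyrosine carboxypeptidase, was at 44.4, 44.6 and 45.7 CPM in CT pools and 47.6, 47.1 and 44.0 CPM in PS pools, with PS pool 3 below all CT pools.

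Vash2, the second carboxypeptidase, was at 4.24, 4.99 and 4.60 CPM in CT pools and 3.86, 4.61 and 3.64 CPM in PS pools, and PS pool 2 lay inside the CT range (-0.19 ± 0.12, adjusted p = 0.599). Svbp, the small chaperone that both vasohibins need, was at 4.87, 5.70 and 5.66 CPM in CT pools and 6.34, 7.10 and 6.41 CPM in PS pools. All PS pools were above all CT pools, and the adjusted p was 0.374 (0.29 ± 0.10). Per length, Ttl at 91.9 ± 3.26 CPM per kb in CT pools stood above Vash1 at 17.3 ± 0.26, Svbp at 6.50 ± 0.56 and Vash2 at 1.14 ± 0.09.

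Acetylation of the lysine inside the tube was represented by Atat1, the acetyltransferase, and Hdac6, the deacetylase. Atat1 was at 22.3, 23.3 and 22.7 CPM in CT pools and 22.0, 23.3 and 20.1 CPM in PS pools. Hdac6 was at 40.5, 42.0 and 43.0 CPM in CT pools and 41.7, 41.6 and 39.4 CPM in PS pools. The groups overlapped for both, and PS pool 3 was the lowest of all pools in each (adjusted p = 0.764 and 0.814).

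Proteins that fold tubulin and assemble the dimer had values on the same side as the tubulins. Of 21 genes of the CCT chaperonin, prefoldin, tubulin cofactors and Arl2, 18 had negative log2 fold changes, 6 were lower at an unadjusted p under 0.05 (28.6%, beside 5.11% of all genes), 8 had every PS pool below every CT pool (38.1%, beside 8.76%), and none passed the adjusted test. The median was -0.042, beside 0.007 over all genes. Arl2, a small GTPase of dimer assembly, averaged 51.5 ± 0.80 CPM in CT pools and 47.8 ± 1.12 CPM in PS pools (-0.11 ± 0.03, adjusted p = 0.352). The chaperonin subunits Cct5 and Cct3 had log2 fold changes of -0.08 ± 0.03 each (adjusted p = 0.378 for both).

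Genes of microtubule-associated and stabilising proteins lay mostly on the other side. Log2 fold changes had a Spearman correlation with transcript length of 0.15 over all genes and 0.257 over the members. The Pearson correlations with log2 length were 0.044 and -0.016. The lists outside the members were not read with the offset for GC content and length. The part of length in the side of each list was not tested. Of 29 genes in this list, 23 had positive values, where 10528 of all 20146 genes did, with a median of 0.061. None passed the adjusted test. Pools did not overlap for 6.9% of the list, beside 18.1% of all genes, and 10.3% had an unadjusted p under 0.05, beside 11.1%. Map1s, a microtubule-binding protein, was at 41.4, 39.3 and 41.5 CPM in CT pools and 49.9, 51.4 and 44.2 CPM in PS pools, without overlap (0.25 ± 0.06, adjusted p = 0.273). Map7d2 had a log2 fold change of -0.10 ± 0.03 and Camsap2, which caps minus ends, 0.15 ± 0.06 (adjusted p = 0.374 and 0.437).

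Among 15 destabilising and severing proteins none passed, 9 were negative, where 9618 of all 20146 genes were, and the median was -0.053. Pools did not overlap for 26.7% of this list (2 above and 2 below), beside 18.1% of all genes. Stmn4 and Stmn2, stathmins that bind free dimers, had log2 fold changes of -0.51 ± 0.15 and -0.11 ± 0.04 (adjusted p = 0.346 and 0.378), and Katnal1, a katanin subunit, 0.08 ± 0.04 (adjusted p = 0.471). Of 19 genes of the gamma-tubulin ring complex and of nucleation, 13 were positive and none passed, with a median of 0.039. Pools did not overlap for 36.8% of these (4 above and 3 below), beside 18.1% of all genes. Mzt2 had -0.19 ± 0.06, Cdk5rap2 0.16 ± 0.05 and Tubgcp5 0.09 ± 0.03 (adjusted p = 0.345, 0.364 and 0.385).

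Motors that walk on these tracks gave 18 positive values of 31, where 10528 of all 20146 genes were positive. The median was 0.047 and no gene passed. Pools did not overlap for 29% of the list (5 above and 4 below), beside 18.1% of all genes. Klc1, a kinesin light chain, was at 1139, 1141 and 1139 CPM in CT pools and 1254, 1268 and 1219 CPM in PS pools. The CT pools were nearly identical and all PS pools lay above them (0.13 ± 0.03, adjusted p = 0.273). The dynein light chain Dynll1 had -0.10 ± 0.04 and the dynactin subunit Dctn5 -0.07 ± 0.03 (adjusted p = 0.427 and 0.446).

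Tubb6, Tubb2b and Tuba1a are among the tubulins known to be induced when a sensory axon is cut, so a list of axon injury genes was set beside them. The list was chosen with its lower values in these data known, so neither its direction nor its counts beside all genes are independent evidence. Of 13 tested genes, 4 fell at an adjusted p under 0.05 (Sprr1a -4.10, Gpr151 -1.43, Atf3 -1.12 and Gal -0.54). Over the whole table, 9 of 20146 genes fell. In the list 11 were negative and 9 had all PS pools below all CT pools, beside 8.76% of all genes. The other 2 were positive. Jun (0.09) had all PS pools above all CT pools, and Cck (0.88) was under 1 CPM in every pool. The 3 tubulins named here had log2 fold changes from -0.55 to -0.12. Whether the injury genes and the tubulins share a source was not tested.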

How the data were processed

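The libraries were poly-A selected, stranded and paired-end, per the labels' protocols. The authors deposited raw counts of reads per gene symbol, 1 file per pool, with no normalization. FastQC, STAR 2.4, HTSeq 0.9.1 and the builds GRCm39 and mm10 are named in the submitters' processing notes, and which build and strand setting applied is not given in the sources used here. Summary rows of reads without a gene (15.29 to 16.22%) were left out of totals and tests. Totals were 51.75 to 87.42 M gene counts, so the number of pools, more than depth, limits precision. No 2 libraries agreed within sampling noise (chi-square per degree of freedom 10.98 to 36.41 over 15 pairs).

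The test was that of edgeR 4.0.16, run under R 4.3.3 (TMM factors, filterByExpr with minimum count 10, quasi-likelihood F test, Benjamini-Hochberg adjustment over 20146 genes, threshold 0.05). The SE was the fold change divided by the square root of F. Of all genes, 17 were higher and 9 lower. GENCODE M21 gave lengths, GC content (95.2% of genes tested) and shared 100-base stretches. Data with known changes were made from these pools and put through the same fit, over 19872 genes. It recovered 39 (58.2%) of the 1.5-fold, 56 (83.6%) of the 2-fold and 64 (97%) of the 4-fold changes. It also called 23 of 19672 unchanged genes, a larger share of all its calls than the threshold of 0.05. Changes smaller than 1.5-fold were not simulated.

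Replicate numbers are shared between groups, with no label saying what they stand for. Deviations of same-numbered pools correlated at 0.337, 0.218 and 0.13 across genes, each over 0.1. Of the pools with different numbers, CT pool 3 and PS pool 2 correlated at 0.122, and the other pairs were negative. The main fit used no pairing. Alternatives were DESeq2 1.42.0, other scaling factors, no low-count filter, the replicate block, a GC content and length offset, robust dispersion, each pool left out, other length measures and, added after seeing the data, summed copies.

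The genes and lists were chosen with earlier results of these data known, so no list was tested and no p was adjusted over a list. Values in every pool were given for members with an adjusted or unadjusted p under 0.05, the 3 highest alpha- and beta-tubulins per length, the polyglutamylase complex, the tyrosination and acetylation genes; each other list gave its genes that passed or up to 3 of smallest p. Pool values of Map1s, Klc1 and Tubb4a were added after they were seen. The coding ends of the other alpha-tubulin genes are not reported here.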

Additional observations from a re-analysis of the deposited data

How the results depend on the processing

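The comparison has 3 pools per group and no litter for a pool, and an exact permutation test of 1 gene could not go below 0.1. All 44 members passed the low-count filter, but genes under 1 CPM (Tubb1, Ttll8 and Agbl1 in every pool) are limited by depth, and isotypes with shared sequence by unique mapping. Of all genes, 26 passed, 330 in DESeq2, 49 without the low-count filter and 2 to 14 when 1 pool was left out. Of the members, 1 passed, 8 in DESeq2, 2 without the low-count filter (Tpgs1 and Tubb6) and 0 to 1 when 1 pool was left out. The median over the members was -0.0154, and -0.0425 to -0.0052 when 1 pool was left out. With the replicate block, 22 genes and 1 member passed, Tpgs1 had an adjusted p of 0.0328, and no call on a member changed. With the GC content and length offset, 21 genes passed, 14 of them higher, and with the offset and the replicate block 32, 16 of them higher. Ttl changed sign when 1 pool was left out, with log2 fold changes of -0.0057 to 0.0351, the negative value without CT replicate 1. Per kb of merged exons, Tuba1a supplied 63.9% of the alpha family and Tubb3 38.9% of the beta family in CT pools, and without division by length 59.9% and 34.5%. Other values recomputed were fold changes of single genes and the sums and shares of the families. Of these, 346 stayed on the same side of their threshold or within the spread of the pools. Beyond that spread, 32 sums or shares moved. Among the fold changes, 8 came to pass the adjusted threshold, 4 no longer passed and 1 changed sign. The cause of these changes was not tested.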
